A study of Homo sapiens with 8 samples.

Results

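The keratin genes of SKBR3 cells were compared between control cells and cells with a knockdown of FOXA1. Members were all genes whose symbol is KRT, a number and at most one letter A, B or C, which gave 42 genes of the 30434 in the count table, 21 on chromosome 12 and 21 on chromosome 17. Of these, 23 had enough reads for the test across all genes, 11 fell below its filter on low counts, and 8 had 3 or fewer counts in every library. Pseudogenes, antisense genes and keratin-associated proteins do not match the rule. A further 13 human keratins of the classes below do not appear under their symbols among the 30434 genes, so they are not analysed here. They are KRT6C, KRT26, KRT31, KRT33B, KRT35, KRT36, KRT37, KRT38, KRT73, KRT74, KRT76, KRT77 and KRT82.

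SKBR3 is a human breast cancer line with amplified ERBB2 (HER2), and FOXA1 is a forkhead pioneer factor of luminal breast epithelium. The control group was 4 libraries of SKBR3 labelled wild type. The other group was 4 libraries of a stable SKBR3 derivative transduced with lentiviruses that carried 3 separate short hairpin RNAs against FOXA1. Whether the derivative was 1 clone, and whether the controls received a vector without a hairpin, are not given in the sources used here. Nothing states that replicates came from separate cultures, so p-values measure only the spread between these libraries, which may be technical.

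Keratins are the intermediate filament proteins of epithelial cells. A filament is built from pairs of one acidic type I and one basic or neutral type II chain, and most type I genes lie in a cluster on chromosome 17 and most type II genes, with type I KRT18, in a cluster on chromosome 12. Simple keratins are the filaments of single-layered and glandular epithelia, including the luminal cells of the breast. Stratified keratins mark the basal and upper layers of skin and mucosa, and hair keratins form the hair shaft and the sheaths of its root. Where levels of different keratins are ranked or summed by type below, they are given per length of transcript. Ratios of counts, shares of counts and remarks on CPM or numbers of reads are not corrected for length. Otherwise each gene is compared with itself.

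The controls held 21838121 to 23786684 counts each and the knockdown libraries 19087878 to 23503753, so that 3 counts, the floor used here, were worth between 0.123 and 0.153 CPM (counts scaled to a library of 1000000). FOXA1 itself fell from between 4071 and 4397 counts to between 83 and 92, a log2 fold change of -5.60 (SE 0.063). Control replicate 3 was unlike its 3 fellow controls along the second principal component, an axis with 1.82% of the variance. With or without that library, 15 keratins were called lower and 5 higher. Of the breast epithelial markers, all 7 passed the filter, and 2 were lower, 4 higher and 1 not called. Over all genes tested, 37.7% were lower and 39.4% higher. ERBB2 fell from 7299 ± 365 to 1338 ± 52.9 CPM (SD, n = 4 each), while EPCAM was at 179.2 ± 7.25 and 225.9 ± 5.83 CPM.

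Most keratins that could be tested were lower after the knockdown, and the falls included the stratified keratin KRT4, the hair keratin KRT81 and KRT80, which nearly disappeared or lost most of their reads. The simple pair KRT8 and KRT18 rose, and so did the root sheath keratins KRT71 and KRT72, from almost no reads. By edgeR's quasi-likelihood test with Benjamini-Hochberg adjustment over 16430 genes, 15 of the 23 tested keratins were lower and 5 higher at an adjusted p under 0.05, and KRT5, KRT10 and KRT24 were not called. That is 87.0% of the tested keratins, beside 77.1% of all genes tested (37.7% lower and 39.4% higher). The groups did not overlap for 20 of the 23 keratins, beside 71.9% of all genes. Falls of at least 4-fold made up 13 of the 23, beside 6.54% of all genes, and rises of at least 4-fold 2 of the 23, beside 8.54%. The median log2 fold change was -2.51 over the tested keratins and 0.019 over all genes tested. These counts do not stand as support on their own. Of the 23, 11 passed the filter through the control libraries alone and 2 through the knockdown libraries alone. In such genes every library of that group reached the filter's cutoff and not every library of the other did. Passing in this way favours a difference in that direction.

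**Figure D1:**
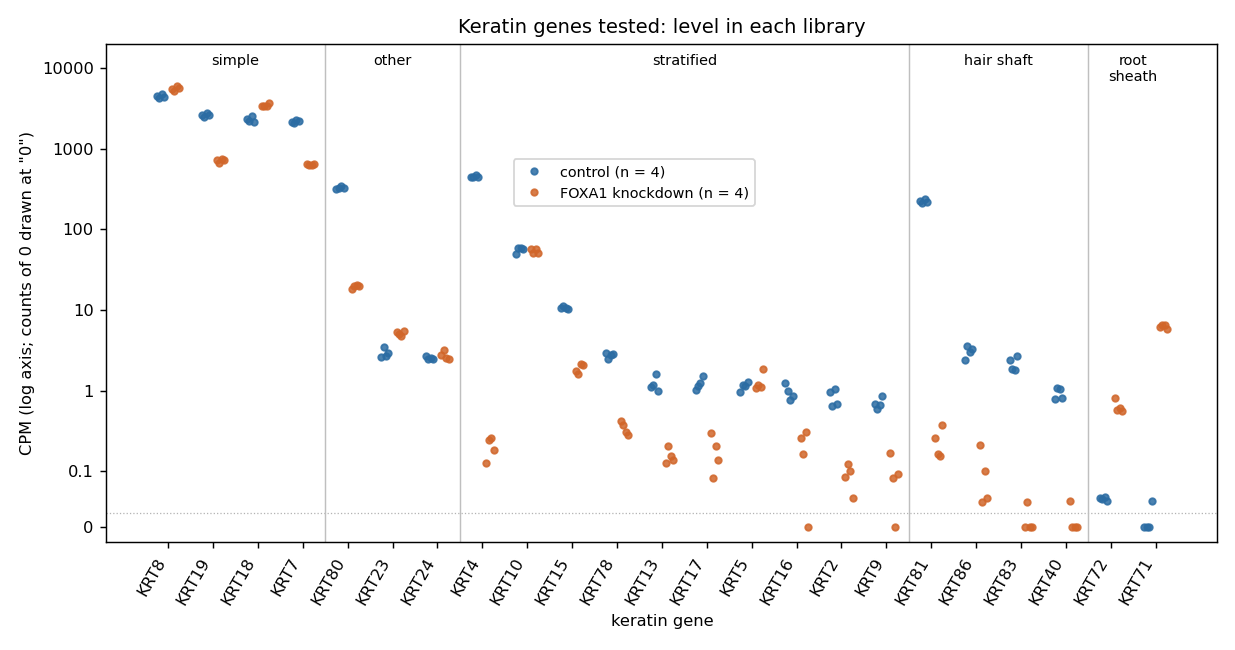
Level of the 23 tested keratins in each library, in CPM on a log axis with counts of 0 drawn at the foot, grouped by keratin class (blue points control, orange points knockdown, 4 libraries each). KRT4 and KRT81 average 455.9 and 222.9 CPM in control and 0.2029 and 0.2351 CPM in knockdown, and KRT71 shows the opposite pattern at a lower level.

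The simple keratins held nearly all keratin reads in both groups and changed in opposite directions. KRT8 and KRT18, the first keratin pair of the embryo and of simple epithelia, rose, while KRT19, a short type I keratin of luminal cells and ducts, and KRT7, a type II keratin of glandular ducts, fell. KRT8 had 99493, 94289, 101047 and 103034 counts in the controls and 129532, 126720, 118768 and 123871 in the knockdown libraries. KRT18 had 50525, 49172, 53165 and 50536 counts, against 79313, 83396, 66405 and 79049. For both genes every knockdown library was above every control.

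KRT19 had 57730, 54919, 59343 and 60931 counts in the controls and 17265, 16420, 14897 and 15710 in the knockdown libraries. KRT7 had 47560, 46209, 48612 and 51575 counts, against 15141, 15190, 12532 and 13921. Here every knockdown library lay far below every control. As library-scaled levels, KRT8 went from 4513 ± 218 to 5611 ± 361 CPM (log2 fold change 0.31, SE 0.058, edgeR adjusted p = 4.548e-06) and KRT18 from 2309 ± 152 to 3452 ± 135 CPM (0.58, SE 0.0543, adjusted p = 5.999e-11). KRT19 went from 2642 ± 133 to 722.0 ± 36.2 CPM (-1.87, SE 0.0516, adjusted p = 2.525e-21) and KRT7 from 2199 ± 87.9 to 636.1 ± 10.2 CPM (-1.79, SE 0.0311, adjusted p = 2.055e-24). The remaining simple keratin, KRT20 of gut and urothelium, was below the filter, with 7 to 10 counts in each control and 1 to 3 in each knockdown library (exact two-sided permutation p = 0.0286, the smallest that 4 against 4 allows).

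Per kilobase of the principal GENCODE transcript, the order of the 4 abundant simple keratins differed between the groups. In control the levels were 2120 ± 102 CPM per kilobase for KRT8, 1900 ± 95.9 for KRT19, 1480 ± 97.4 for KRT18 and 1250 ± 50.1 for KRT7. In knockdown they were 2640 ± 170 for KRT8, 2210 ± 86.5 for KRT18, 519 ± 26.0 for KRT19 and 363 ± 5.82 for KRT7. KRT19 stood above KRT18 in control and below it in knockdown.

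Ratios of 2 simple keratins within a library do not depend on how libraries are scaled, and 3 were compared. KRT19 to KRT18, both type I, fell from 1.15 ± 0.042 counts per count to 0.209 ± 0.014, a log2 change of -2.45 (SE 0.054). KRT7 to KRT8, both type II, fell from 0.487 ± 0.010 to 0.114 ± 0.0062, a log2 change of -2.10 (SE 0.043). The ratio of KRT8 to its partner KRT18 went from 1.96 ± 0.062 to 1.63 ± 0.12, a log2 change of -0.27 (SE 0.056); both genes rose, KRT18 by more. None of the 3 ratios overlapped between groups, and each gave an exact two-sided permutation p of 0.0286, also after adjustment over the 3.

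**Figure D2:**
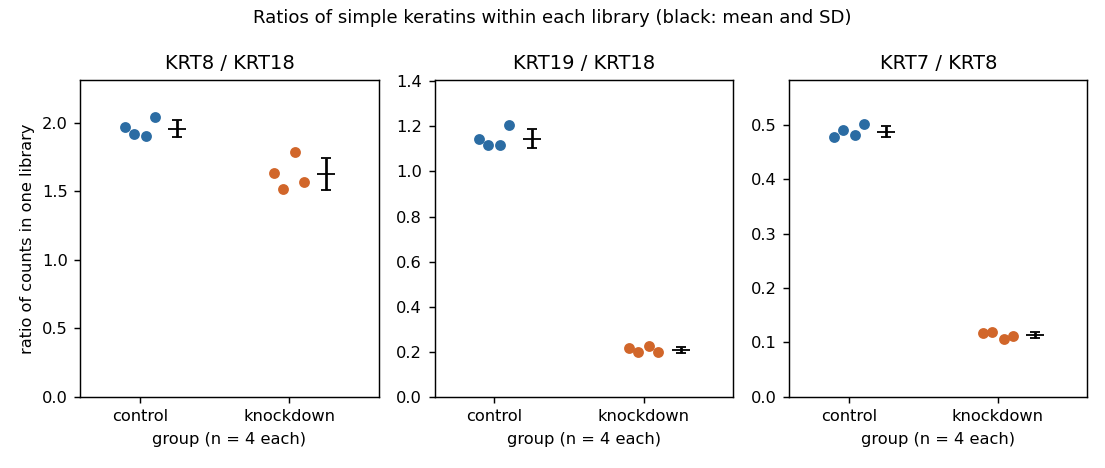
Ratios of counts within each library for 3 pairs of simple keratins, in control and knockdown (points are libraries, 4 in each group, with mean and SD beside them, and axes start at 0). KRT8 to KRT18 lay between 1.9 and 2.04 in control and between 1.52 and 1.79 in knockdown, and the other ratios dropped much further.

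All keratins together took 1.24% ± 0.0541 of the counts in the controls (1.182% to 1.312%) and 1.083% ± 0.0402 in the knockdown libraries (1.038% to 1.124%). The ranges did not overlap, and the drop was small beside the changes within the family. KRT7, KRT8, KRT18 and KRT19 made up 91.39% ± 0.203 of keratin counts in control and 99.1% ± 0.0404 in knockdown. The share of KRT8 in keratin counts was 35.38% ± 0.25 and then 53.33% ± 1.49, and that of KRT18 was 18.08% ± 0.556 and then 32.88% ± 1.42. KRT4, KRT80 and KRT81 held 3.575%, 2.58% and 1.748% of keratin counts in control and 0.001932%, 0.185% and 0.002227% in knockdown.

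**Figure D3:**
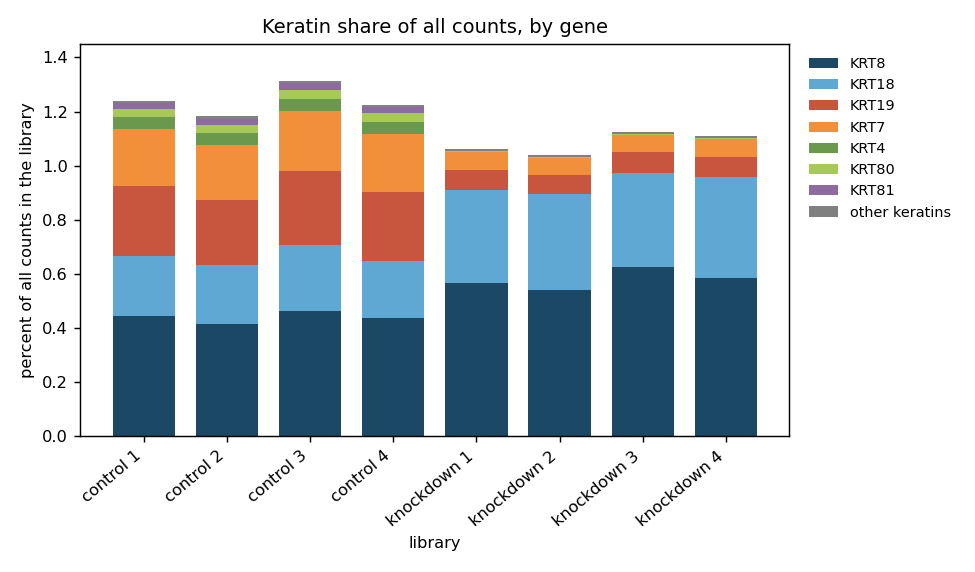
Percent of all counts in each library taken by keratin genes, stacked by gene (4 control and 4 knockdown libraries). The bars reach 1.182% to 1.312% in control and 1.038% to 1.124% in knockdown, and KRT8 and KRT18 fill most of the knockdown bars.

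Because filaments need both chain types, the summed levels per length of the 2 types were also set side by side, without KRT222. Type II to type I stood at 1.103 ± 0.0206 in control and 1.09 ± 0.0572 in knockdown, ranges that overlap (1.08 to 1.13 and 1.04 to 1.17). Within each type the makeup moved toward 1 gene. KRT18 was 43.27% ± 0.877 of the type I level in control and 80.05% ± 1.06 in knockdown, and KRT8 was 56.45% ± 0.493 of the type II level and then 87.6% ± 0.606.

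Among stratified keratins, 8 of the 10 tested were lower, each by at least 4-fold, and KRT5 and KRT10 were not called, beside 37.7% of all genes tested that were lower and 6.54% lower by at least 4-fold. All of the 8 but KRT15 passed the filter through the control libraries alone, which favours a fall, so the count and the median are descriptions. The median log2 fold change of the 10 was -2.82, or -2.68 with KRT2, whose knockdown libraries were all at the floor, set to its bound. The change with most reads was that of KRT4, the type II keratin of the upper layers of oesophagus and other moist mucosa. KRT4 had 9738, 9839, 10114 and 10511 counts in the controls and 3, 6, 5 and 4 in the knockdown libraries. Its level went from 455.9 ± 16.2 to 0.2029 ± 0.0591 CPM (log2 fold change -11.10, SE 0.21, edgeR adjusted p = 2.8e-32). KRT13, the type I partner of KRT4 in mucosa, had far fewer reads, 24, 26, 34 and 23 counts in the controls and 3, 5, 3 and 3 in the knockdown libraries (-2.91, SE 0.198, adjusted p = 1.006e-08).

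The RefSeq sequences upstream of 3 starts are shown as the gene with the largest fall (KRT4), the one with the largest rise (KRT71) and one that was not called (KRT10). Each runs 5′ to 3′ on the gene's strand over the 250 bases before the start, on GRCh38.p14. KRT4 lies at chr12:52814117-52814366, KRT71 at chr12:52553146-52553395 and KRT10 at chr17:40822615-40822864, all on the minus strand, and the KRT4 start of RefSeq lies inside the longer gene span of GENCODE. Capitals mark GCCNNNGGC, the core bound by AP-2 factors, in KRT4, and the TATA box TATAAA in KRT71 and KRT10.
KRT4: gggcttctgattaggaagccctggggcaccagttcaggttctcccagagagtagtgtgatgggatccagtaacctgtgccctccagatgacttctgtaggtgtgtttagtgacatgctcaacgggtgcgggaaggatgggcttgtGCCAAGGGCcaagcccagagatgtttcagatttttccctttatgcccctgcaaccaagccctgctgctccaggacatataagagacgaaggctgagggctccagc
KRT71: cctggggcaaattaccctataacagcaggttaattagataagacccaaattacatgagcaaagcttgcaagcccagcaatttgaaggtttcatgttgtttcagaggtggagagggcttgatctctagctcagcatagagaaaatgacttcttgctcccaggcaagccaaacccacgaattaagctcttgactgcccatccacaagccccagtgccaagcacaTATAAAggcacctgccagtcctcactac
KRT10: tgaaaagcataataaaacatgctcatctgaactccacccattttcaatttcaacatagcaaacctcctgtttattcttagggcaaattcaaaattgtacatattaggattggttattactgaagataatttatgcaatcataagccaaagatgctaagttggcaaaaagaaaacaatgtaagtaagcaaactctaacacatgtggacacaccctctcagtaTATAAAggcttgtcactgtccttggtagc

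RefSeq promoter entries matched 23 of the 42 keratins, but only 9 of the 23 keratins that were tested. KRT7, KRT15, KRT18, KRT19, KRT78, KRT80, KRT81, KRT83 and KRT86 were among those without an entry, so they were not searched. Of the keratins with an entry, 21 had a single one. On either strand, TATAAA was found in 11 of these 21 and in 10.7% of 35116 promoters of the same length. Forkhead core motifs, searched as TGTTTAC, as the form TGTTTGC, and as the rarer forms TATTTAC and also TATTTGC, were found in 1 of the 21, KRT27, and in 10.6% of all promoters. KRT40, which has 4 entries and is not among the 21, held 2 such matches at 1 entry, 128 and 51 bases before its start, and none at the other three. GCCNNNGGC was found in 3 of the 21 (KRT4, KRT9 and KRT75) and in 19.8% of all promoters. Such matches describe letters in a window and are not binding sites.

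KRT15, a type I keratin of basal cells, and KRT78, a type II keratin of stratified epithelia, also fell. KRT15 had 233, 247, 226 and 236 counts in the controls and 41, 39, 42 and 45 in the knockdown libraries, so that its level went from 10.68 ± 0.426 to 1.888 ± 0.262 CPM (-2.51, SE 0.105, edgeR adjusted p = 1.004e-16). KRT78 had 64, 54, 58 and 66 counts against 10, 9, 6 and 6 (-2.96, SE 0.138, adjusted p = 3.757e-12). In both genes the groups were far apart. In bulk libraries, fewer cells with a keratin and less of its RNA in each cell cannot be told apart.

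The other stratified keratins that fell had 13 to 35 counts in every control. KRT17 and KRT16, type I keratins of wounded skin and the hair follicle, fell with log2 fold changes of -2.73 (SE 0.371, adjusted p = 4.176e-08, and -1.83 with KRT14, KRT16 and KRT17 summed) and -2.39 (SE 0.897, adjusted p = 8.481e-06). KRT9, the type I keratin of palms and soles, fell by 2.90 on the log2 scale (SE 0.633, adjusted p = 1.848e-06). KRT2, of the upper epidermis, had 14 to 22 counts in control and 1 to 3 in knockdown, at least 6.15-fold lower against a floor of 3 counts per library (adjusted p = 1.088e-07). KRT16 had 6, 4, 6 and 0 counts in the knockdown libraries.

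KRT10 and KRT5 are the type I keratin of the upper epidermis and the type II keratin of basal cells. KRT10 had 1085, 1304, 1223 and 1343 counts in the controls and 1342, 1253, 1112 and 1102 in the knockdown libraries, at 56.14 ± 4.38 and 53.92 ± 3.28 CPM (-0.06, SE 0.0732, edgeR adjusted p = 0.3405). KRT5 had 21, 26, 24 and 30 counts against 25, 29, 22 and 40 (0.19, SE 0.201, adjusted p = 0.4513). The groups overlapped for both. Their partners in skin were close to the floor: KRT1, which pairs with KRT10, had 0 counts in every control and 5, 4, 6 and 5 in the knockdown libraries, and KRT14, which pairs with KRT5, had 0, 1, 1 and 0 against 4, 6, 7 and 6. Neither passed the filter. Their groups did not overlap (exact two-sided permutation p = 0.0286 each), and 0 counts in a control allowed a KRT1 level up to the floor of 3 counts.

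Of the 6 hair keratins tested, the shaft keratins KRT81, KRT83, KRT86 and KRT40 were lower and the root sheath keratins KRT71 and KRT72 were higher. The 4 shaft genes passed the filter through the control libraries alone and the 2 sheath genes through the knockdown libraries alone, so these directions describe the genes and make no pattern by site. Below the filter, the sheath and companion keratins KRT25, KRT27 and KRT75 had fewer counts in knockdown, and the shaft keratin KRT39 had more. KRT81, a type II keratin of the hair cortex, had 4941, 4637, 4980 and 5090 counts in the controls and 6, 4, 3 and 8 in the knockdown libraries, a fall from 222.9 ± 11.0 to 0.2351 ± 0.101 CPM (-9.85, SE 0.272, edgeR adjusted p = 2.221e-30). KRT86, another cortex keratin, had 52, 78, 63 and 76 counts against 5, 1, 2 and 1 (-4.84, SE 0.461, adjusted p = 2.909e-13, and -5.52 without knockdown replicate 1). KRT83, also of the cortex, had 53, 41, 38 and 62 counts against 0, 1, 0 and 0, at least 16.2-fold lower (adjusted p = 5.962e-13). The type I hair keratin KRT40 had 17, 24, 22 and 19 counts against 1, 0, 0 and 0, at least 6.88-fold lower (adjusted p = 1.015e-09). None of the 4 overlapped between groups.

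KRT81 and KRT86 are close copies, and reads can be placed on the wrong one. Their coding sequences were 89.6% identical, and 29.3% of the stretches of 101 bases, the read length, in the KRT81 transcript also occurred in KRT86. Of such stretches in the KRT83 transcript, 0.0% occurred in KRT81 and 0.0% in KRT86.

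With KRT81, KRT83 and KRT86 summed, the counts were 5046, 4756, 5081 and 5228 in the controls and 11, 6, 5 and 9 in the knockdown libraries, or 228.1 ± 10.6 and 0.3456 ± 0.113 CPM. Nearly all of this sum is KRT81, so it does not show how KRT83 or KRT86 changed on their own, and how many KRT86 reads came from KRT81 was not tested. On GRCh38, KRT81 (chr12:52285913-52291534, minus strand) lies wholly inside the span of KRT86 (chr12:52249300-52309163, plus strand), which also overlaps KRT7 and the pseudogene KRT87P. KRT87P had 61 to 71 counts in control and 0 to 3 in knockdown. Whether the counting used strand is not given in the sources used here. KRT81 and KRT87P lie on the strand opposite to KRT86 and KRT7 on the same strand, and how far reads were shared in these overlaps was not tested.

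KRT71 and KRT72, type II keratins of the inner root sheath, were almost unread in control. KRT71 had 0, 0, 0 and 1 counts in the controls and 143, 159, 127 and 124 in the knockdown libraries, at 6.19 ± 0.364 CPM and at least 45.5-fold higher against a floor of 3 counts per library (edgeR adjusted p = 3.58e-18). KRT72 had 1 count in each control and 19, 14, 12 and 12 in the knockdown libraries, at least 4.67-fold higher (adjusted p = 9.906e-08). Their type I partners in the sheath showed no such reads. KRT25 had 10, 5, 9 and 7 counts in control against 0, 0, 1 and 0, KRT27 had 3, 8, 6 and 4 against 0 in each, and KRT28 stayed at 2 or fewer in every library. KRT75, of the companion layer between sheath and shaft, had 8, 7, 4 and 4 counts against 0 in each.

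Outside these classes, KRT80, a type II keratin found in many epithelia, lost most of its reads. KRT80 had 6930, 7193, 7284 and 7619 counts in the controls and 424, 478, 401 and 429 in the knockdown libraries, a 16.9-fold fall from 329.1 ± 11.9 to 19.44 ± 1.02 CPM (-4.08, SE 0.0466, edgeR adjusted p = 3.5e-29). KRT23, a type I keratin, had 57, 76, 57 and 67 counts against 125, 123, 94 and 117 and rose (0.82, SE 0.0971, adjusted p = 1.204e-06). KRT24 had 59, 55, 53 and 58 counts against 65, 78, 50 and 53, and its groups overlapped (0.11, SE 0.0878, adjusted p = 0.5022).

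The 11 keratins below the filter had at most 11 counts in any library, and each was tested on its own. The groups did not overlap for 6 that were lower in knockdown (KRT3, KRT6B, KRT20, KRT25, KRT27 and KRT75) and for 2 that were higher (KRT1 and KRT14), each with an exact two-sided permutation p of 0.0286. The matching share over all genes below the filter was not computed, so these counts only describe the single genes. For KRT39 and KRT79 the lowest count of one group equalled the highest of the other, and their scaled levels gave the same p of 0.0286 in the exact permutation test. KRT39, a hair shaft keratin, had 1, 1, 0 and 0 counts in control and 4, 8, 1 and 1 in knockdown, and KRT79 had 7, 1, 10 and 10 against 1, 0, 0 and 0. The groups overlapped for KRT222, which had 6, 11, 0 and 6 counts against 1, 0, 0 and 0 (exact two-sided permutation p = 0.143), and control replicate 3 was the control at 0.

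The 8 keratins at the floor were KRT6A and KRT12 among the stratified keratins, KRT32, KRT33A, KRT34, KRT84 and KRT85 among the hair shaft keratins, and KRT28 of the root sheath. None had more than 3 counts in any library, so no difference was detectable at this depth. In all, 29 keratins had more than 3 counts in at least 1 control library and 23 in at least 1 knockdown library. Of these, 11 exceeded 3 counts in control libraries alone and 5 (KRT1, KRT14, KRT39, KRT71 and KRT72) in knockdown libraries alone.

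The chromosome 12 cluster spans 783.9 kb (chr12:52168996-52952901, GENCODE 29, GRCh38) and the chromosome 17 cluster 970.2 kb (chr17:40654665-41624842). At one end of the chromosome 12 cluster KRT80, KRT7, KRT86, KRT81 and KRT83 were all lower, and at the other end the overlapping genes KRT8 and KRT18 were higher, 48.1 kb from KRT78, which was lower. KRT71, higher, is the next keratin of the table after KRT5, which was not called, 23.2 kb away. On chromosome 12, 8 of the 13 tested keratins were lower and 4 higher, and on chromosome 17 it was 7 and 1 of 10. Through the control libraries alone, 6 of these passed the filter on chromosome 12 and 5 on chromosome 17. Another 2 on chromosome 12 passed through the knockdown libraries alone. For such genes the filter favoured the direction of their change, so the counts are descriptions. Among the other genes within 1 Mb of the clusters, 12 were lower and 20 higher of 38 tested on chromosome 12 (median 0.22), and 39 lower and 13 higher of 64 tested on chromosome 17 (median -0.36). Beside these stand 37.7% lower and 39.4% higher over all genes tested.

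**Figure D4:**
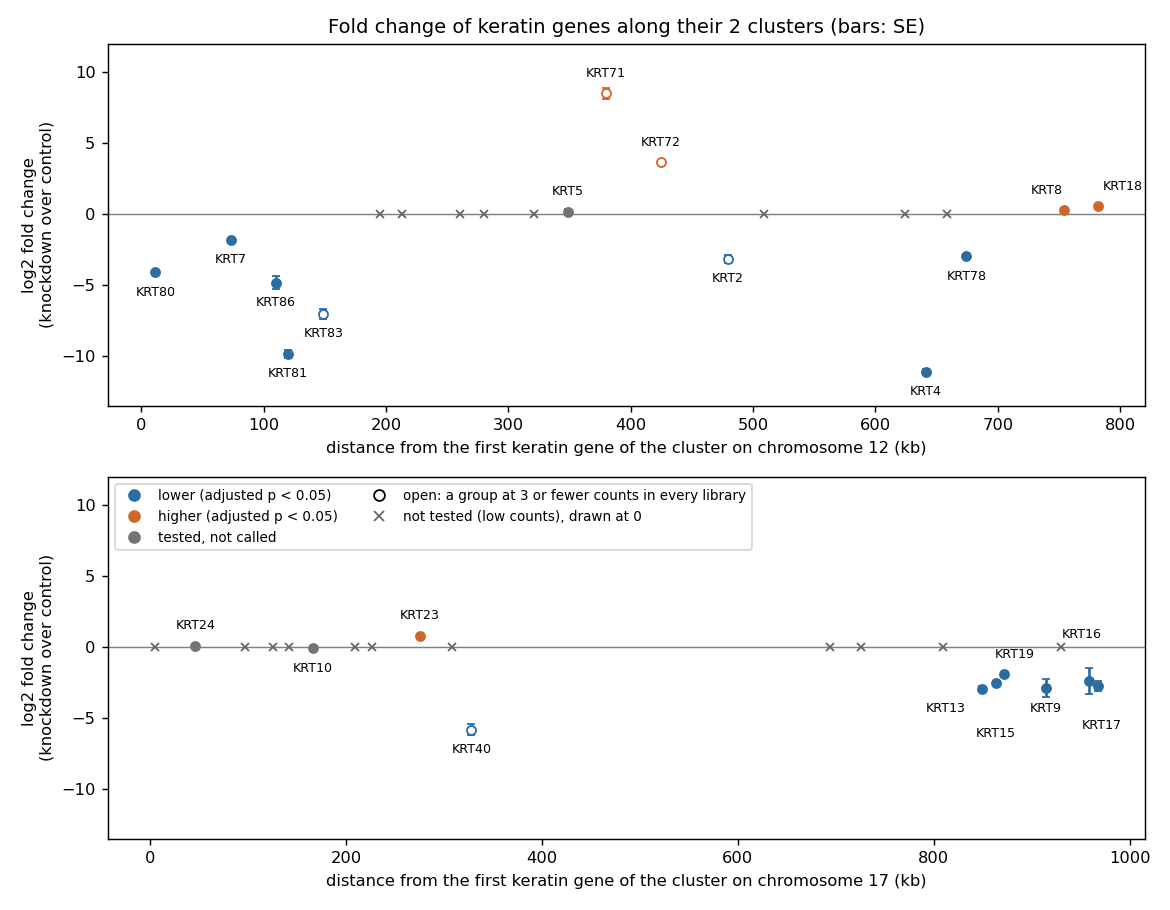
Fitted log2 fold change (knockdown over control) of each keratin against its distance in kilobases from the first keratin of its cluster, with bars for the SE. Open circles are genes with 3 or fewer counts in every library of one group, whose fitted value depends on the prior count, and crosses at 0 are keratins that were not tested. KRT80, KRT7, KRT86, KRT81 and KRT83 lie below 0 at one end of the chromosome 12 cluster, and KRT8 and KRT18 lie above 0 at the other.

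Proteins that anchor keratin filaments, or otherwise bind or act with them, were mixed, with 7 of 13 lower, 5 higher and 1 not called. Over all genes tested 37.7% were lower and 39.4% higher, which is the comparison for this list and those that follow. Their median log2 fold change was -0.14. PKP1, a desmosomal plakophilin of stratified epithelia, fell from 11.3 ± 1.5 to 0.1708 ± 0.0967 CPM (-6.02, SE 0.405), and PKP2, the plakophilin of simple epithelia, rose from 19.69 ± 0.823 to 126.2 ± 3.37 CPM (2.68, SE 0.0358). The plakins PPL and EVPL fell (-1.12 and -0.72), and EPPK1, an epiplakin that binds keratin bundles, rose (0.58). With libraries scaled by total alone, 6 of the 13 were lower and 5 higher.

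Of the other intermediate filaments, 12 of 18 were tested, and 4 were lower, 6 higher and 2 not called (median 0.09; 4 lower and 8 higher with libraries scaled by total alone). BFSP1, a filament protein of the lens, fell by 4.51 on the log2 scale, and NES (nestin) and SYNC (syncoilin) had log2 fold changes of -2.47 and -1.48. The lamin LMNB1 rose from 91.39 ± 2.33 to 229.2 ± 5.23 CPM. VIM, the vimentin of mesenchymal cells, stayed below the filter at 0 to 2 counts in control and 7 to 11 in knockdown. The neurofilament genes NEFL (0 counts in every control, 27 to 40 in knockdown) and NEFM (0 to 1, and 50 to 69) rose. VIM, NEFL and NEFM were named after their values were seen.

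Cornified envelope genes build the shell of the outermost stratified cells, and 6 of the 16 in the table were tested, with 4 lower, 2 higher and a median of -1.39. IVL (involucrin) fell from 90.47 ± 3.23 to 7.235 ± 0.294 CPM (-3.65, SE 0.0389) and TGM1, the transglutaminase that crosslinks the envelope, from 100.1 ± 5.03 to 43.08 ± 1.26 CPM. SPRR3, a small proline-rich precursor, rose from 0.571 ± 0.164 to 3.929 ± 0.433 CPM. Each of these changes passed the edgeR test.

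Factors known to act on keratin genes also went both ways, with 8 lower, 7 higher and 1 not called of 16 tested (median -0.08, and 7 lower and 7 higher with libraries scaled by total alone). OVOL2, a repressor that maintains epithelial state, fell by 2.98 on the log2 scale, and the retinoic acid and vitamin D receptors RARG and VDR fell with log2 fold changes of -2.68 and -2.07. HOXC13, a factor of hair shaft keratin genes that was named after its values were seen, fell from 1323 to 1402 counts to 438 to 642 (-1.35, adjusted p = 2.982e-18). TP63, the master factor of basal stratified cells, rose from 0.1471 ± 0.0429 to 7.853 ± 0.551 CPM (5.68, SE 0.198), and MSX2 rose from 42.2 ± 0.994 to 123.2 ± 4.56 CPM and GRHL3 from 2.821 ± 0.449 to 8.001 ± 1.05 CPM. Basal epithelial markers, which include TP63, were lower for 2, higher for 5 and not called for 1 of 8 tested (median 1.71). Of the keratins used as basal markers, KRT5 was not called and KRT15 fell. KRT17 also fell, from 22 to 35 counts in control to 2 to 7 in knockdown. KRT14 had 0 to 1 counts in control and 4 to 7 in knockdown.

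Marker lists of cells that are not epithelial summed to at most 21.9 CPM in any library. The summed immune markers (3 of 4 in the table) lay between 4.62 and 5.81 CPM in control and between 0.647 and 1.61 in knockdown, with PTPRC at 3 or fewer counts in every library. That sum hides opposite moves. CD68 fell from between 93 and 131 counts to between 3 and 26, and CD14 rose from between 2 and 5 to between 11 and 13. The summed fibroblast markers (5 of 6) lay between 5.26 and 6.97 CPM and between 10.8 and 11.9, with DCN and COL1A2 at 3 or fewer counts everywhere and COL3A1 at 0 to 1 counts in control and 90 to 104 in knockdown. The muscle-like markers (both of 2) summed to between 1.14 and 1.71 CPM and between 0.458 and 0.693, and the endothelial ones (both of 2) to between 15.9 and 16.7 and between 18.9 and 21.9. Of the muscle-like markers, ACTA2 fell from between 24 and 36 counts to between 1 and 2. DES, below the filter, had 0 to 1 counts in control and 8 to 13 in knockdown. CD14, ACTA2 and DES were named after their values were seen. The part of such cells in the keratin changes was not tested.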

How the data were processed

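RNA from 4 control and 4 FOXA1 knockdown libraries of SKBR3 was sequenced. The authors deposited whole-number read counts per gene with a symbol column, and no further normalization was applied to the file. FastQC, Salmon 1.9, DESeq2 3.16 and hg38 are named in the submitters' processing notes, without a role. How Salmon's estimates became whole counts, the annotation release and the use of strand are not given in the sources used here.

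All 8 libraries entered 1 fit with edgeR 4.0.16 (R 4.3.3): filterByExpr with its defaults (minimum 10 counts, total 15), TMM scaling, glmQLFit with robust estimation and glmQLFTest, Benjamini-Hochberg adjustment over the 16430 genes tested and a threshold of 0.05. CPM are counts divided by the TMM-scaled total and multiplied by 1000000. Standard errors come from log2 CPM with 0.5 added to each count, and values after ± are SDs over 4 libraries. The prior count behind a fitted fold change was 0.125. A group with no library above 3 counts was set to 3 counts per library, which makes its fold a lower bound for counting error only. Keratins below the filter and the 3 ratios were tested by exact two-sided permutation over the 70 divisions into 4 and 4. Depth was 19087878 to 23786684 counts.

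Tested on simulated data of 16101 genes, the same fit called 85 of 89 genes changed by 1 log2 unit and 105 of 108 changed by 2, and 7 of its 197 calls were unchanged genes. All 42 keratins matched GENCODE release 29 (GRCh38), which gave positions and lengths. Upstream sequences are from RefSeq (GRCh38.p14). Every keratin is accounted for. Of the other lists, up to 3 rises and 3 falls, ranked by fitted change among genes past the threshold that averaged 50 counts or more, were eligible to be named. The members and lists were chosen with earlier results of these data known. Alternatives were other scalings and filters, DESeq2 1.42.0, limma 3.58.1 voom, fits without robust estimation, a replicate block, an adjusted p of 0.01, summed copies and leaving out each library.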

Additional observations from a re-analysis of the deposited data

Results flagged for a closer look

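Within each group of 4 libraries, the level of each of the 23 tested keratins and the keratin share of all counts were checked for 1 library far from the other three, by the gap to its nearest neighbour as a share of the group's range (Dixon's critical value). Of 48 groups checked, 7 were picked, where chance alone picks about 2.4. KRT71 in control replicate 4 (0.043 CPM), KRT40 in knockdown replicate 1 (0.0424 CPM) and KRT83 in knockdown replicate 2 (0.0409 CPM) were each a single count where the other libraries of the group had 0. KRT18 was higher in knockdown replicate 4 (3652 CPM) than in the others (3366 to 3411), and its log2 fold change without that library was 0.55. KRT10 was lower in control replicate 1 (49.62 CPM) than in the others (57.8 to 59.12), and without that library its log2 fold change was -0.11 (edgeR adjusted p = 0.0542). KRT5 was higher in knockdown replicate 4 (1.848 CPM) than in the others (1.061 to 1.186), and its direction turned without that library, to -0.03. KRT24 was higher in control replicate 1 (2.698 CPM) than in the others (2.494 to 2.514), and KRT24 was not called.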

How the results depend on the processing

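The counts of 15 keratins lower and 5 higher were the same under RLE, upper-quartile and library-size scaling, DESeq2, limma voom, fits without robust estimation, an adjusted p of 0.01 and with each library left out. Without a filter on low counts 23 were lower and 8 higher, and with a mean of at least 50 counts, which leaves fewer genes tested, 6 were lower and 4 higher. Same-numbered libraries did not deviate together (correlations of 0.02, 0.056, -0.031 and -0.001), so the numbers were not taken as pairs, and with the replicate block 15 were lower and 5 higher. Of 382 single-gene alternatives over 23 genes, 379 kept direction and side of the threshold and 3 turned: KRT5 was at -0.03 without knockdown replicate 4, and KRT10 at 0.00 after upper-quartile scaling and at 0.03 when only library size was used. Over the 8 fits that each leave out 1 library, KRT5 ran from -0.03 to 0.27. None of those 3 passed the test before or after, and the cause was not tested. Genes of 35 or fewer counts per control limit the precision, and no difference is detectable among keratins at 3 or fewer counts. With KRT14, KRT16 and KRT17 summed, the log2 fold change was -1.83, against -2.73 for KRT17 alone.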

Other observations

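Keratin pseudogenes went both ways. The table held 63, of which 40 had 3 or fewer counts in every library and 7 were tested, with 2 lower, 3 higher and 2 not called. Over all genes tested the shares were 37.7% lower and 39.4% higher. KRT8P12 fell from 9.60 ± 0.361 to 5.38 ± 0.521 CPM (log2 fold change -0.83, SE 0.0771, edgeR adjusted p = 8.084e-09), while KRT8 rose. KRT8P46 went from 6 to 13 counts in control to 24 to 39 in knockdown (1.63, SE 0.268, adjusted p = 5.263e-06), and KRT18P5 from 5 to 11 to 15 to 19 (1.08, SE 0.265, adjusted p = 0.002461). How many of these reads came from the parent genes was not tested.

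The keratin-associated proteins, which embed hair keratins in the shaft, were near the floor: none of the 13 in the table passed the filter, and 10 had 3 or fewer counts in every library. KRT7-AS, which overlaps KRT7 by 2401 bases on the opposite strand, went from between 658 and 760 counts to between 161 and 236 (-1.84, SE 0.0917, adjusted p = 5.726e-18). KRT10-AS1, which overlaps KRT10 by 3490 bases, went from between 448 and 502 to between 368 and 464 (-0.23, SE 0.0403, adjusted p = 0.0009213), while KRT10 was not called. Without knowledge of strand, reads of a gene and its antisense partner cannot be told apart. KRTCAP3, named for a keratinocyte and not a keratin, was singled out after its values were seen and fell from 9.53 ± 0.728 to 0.401 ± 0.206 CPM (-4.58, SE 0.467, adjusted p = 8.351e-17).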
